A study of Mus musculus with 14 samples.

Results

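The subunits of NMDA and AMPA receptors were examined in mouse brains, WT or Capn15 KO, taken at postnatal day 2 (P2). The members are 10 genes found by symbol in the table of counts, 6 for NMDA receptor subunits (Grin1, Grin2a, Grin2b, Grin2c, Grin2d and Grin3a) and 4 for AMPA receptor subunits (Gria1, Gria2, Gria3 and Gria4), of 17927 genes in all. RNA-SEQ was performed on 14 brains from 6 litters, 7 WT and 7 Capn15 KO. The WT brains were 2 female and 5 male, and the Capn15 KO brains were 4 female and 3 male. The animals were untreated and their brains were frozen. The mouse lines were made with C57BL/6J mice, and the labels do not name the Capn15 allele that these brains carry. The names of the count columns hold 1 of 6 letters (A to F), taken here as the 6 litters of the study, while the labels put all brains in a single batch. A WT and a Capn15 KO library with the same replicate number have the same letter, and litter B holds replicates 2 and 3. Such pairs share a litter, but only that of replicate 7 is of the same sex. Within litter B the pairs follow the replicate numbers alone.

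Glutamate is the main excitatory transmitter of the brain. AMPA receptors are tetramers of the subunits encoded by Gria1 to Gria4 and carry most of the fast current at excitatory synapses, and the edited product of Gria2 keeps calcium out of the channel. NMDA receptors need the product of Grin1, which binds glycine or D-serine, together with glutamate-binding GluN2 subunits (Grin2a to Grin2d) or with GluN3 subunits. In the rodent forebrain Grin2b and Grin2d are used before birth, while Grin2a and, in the cerebellum, Grin2c become more abundant after it.

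Libraries held 37620954 to 70910163 counts. Levels are given in CPM, the counts of a gene per 1000000 counts of the library, with TMM scaling between libraries, and 3 counts correspond to 0.0797 CPM at the lowest depth. Capn15 was at 25 to 27.3 CPM in WT replicates 1 to 6 and at 12.2 to 14.5 CPM in Capn15 KO replicates 1 to 6. Litter F goes against this, with 18.7 CPM in WT replicate 7 as labelled and 20.2 CPM in Capn15 KO replicate 7 as labelled, so the differences between genotypes are also given without litter F. Xist was at 150 CPM or more in the libraries labelled female and at 0.399 CPM or less in those labelled male. The labels give neurons as the cell type, while markers of other cells were present in every library. Summed over each marker list, neurons were at 4496 to 4970 CPM, astrocytes and radial glia at 1499 to 2013 CPM, the oligodendrocyte lineage at 341 to 583 CPM and microglia at 78.7 to 111 CPM. In such bulk samples fewer cells of a type and less RNA per cell cannot be told apart.

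All 10 members had counts in every library. To compare genes with each other, CPM values were divided by the kilobases of exon that GENCODE M21 gives for the gene on GRCm38, counting each exonic base once. On this scale the WT means ran from 39.8 CPM per kilobase for Gria1 to 0.571 CPM per kilobase for Grin2c. The order was Gria1, Gria2, Gria4, Grin2b, Grin3a, Grin1, Gria3, Grin2d, Grin2a and Grin2c in both genotypes. In WT the ranges of Grin2b (14.3 to 19.8 CPM per kilobase) and Grin3a (12.4 to 15.3 CPM per kilobase) overlapped. Those of Grin3a and Grin1 (10.5 to 13.2 CPM per kilobase) did as well, so the ranges across libraries do not separate these neighbours. Within single libraries Grin2b was above Grin3a, and Grin3a above Grin1, in 7 of 7 WT libraries on this scale, an order that turns per kilobase of the longest transcript. All other neighbours in the order had ranges that did not overlap.

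**Figure D1:**
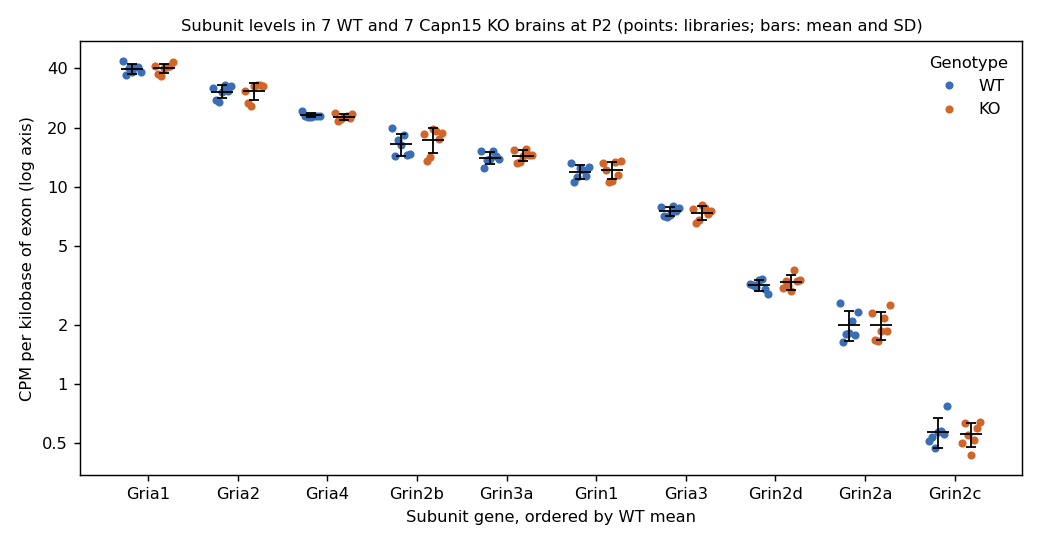
Level of each subunit gene in CPM per kilobase of exon (vertical axis, log scale) in 7 WT (blue) and 7 Capn15 KO (orange) libraries, with means and SD. The points of both genotypes overlap for each gene, and the levels fall from 39.8 for Gria1 to 0.571 for Grin2c in WT.

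Part of this order depends on the length that is used. GENCODE lists 14 transcripts for Grin1, whose exons together cover 9700 bases, while its longest transcript has 4276 bases and its longest coding sequence 2877 bases. Per kilobase of the longest transcript Gria2 was at 45.6 and Gria1 at 43.3 in WT, with overlapping ranges, and Grin1 followed at 27.1. Grin3a (23.1) was then below Grin1 and above Grin2b (17.0), the latter in 7 of 7 WT libraries, the reverse of the order per kilobase of exon. Per kilobase of coding sequence Gria2 led at 179, followed by Grin2b at 92.1 and Gria1 at 88.4. The ranges of Grin2b and Gria1 overlapped on that scale. Most exonic bases of Gria2 and Grin2b lie outside the coding sequence, which has 2649 of 15548 and 4446 of 24842 bases. Grin2c was last on all 3 scales, at 0.571, 0.588 and 0.774. Grin2d stood above Grin2a per kilobase of exon (3.17 and 2.0) and of the longest transcript (3.88 and 2.44), and below it per kilobase of coding sequence (5.31 and 8.15).

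Among the NMDA receptor genes, Grin1 (ENSMUSG00000026959, GRCm38 chromosome 2, 25291181 to 25319187, minus strand) encodes the subunit that every NMDA receptor contains. It had 102, 119 and 128 CPM in WT libraries, against 102, 119 and 131 CPM in those of Capn15 KO (lowest, median and highest, as for the genes that follow). The 2 sets of libraries thus covered nearly the same interval. Grin2a (ENSMUSG00000059003, chromosome 16, 9567898 to 9995560, minus strand) had 29.2, 32.5 and 46.0 CPM in WT libraries, against 29.6, 33.4 and 45.0 CPM in those of Capn15 KO. Its highest libraries were those of litters A and F in both genotypes. Grin2b (ENSMUSG00000030209, chromosome 6, 135713233 to 136173511, minus strand) had 356, 406 and 492 CPM in WT libraries, against 335, 460 and 488 CPM in those of Capn15 KO. The Capn15 KO median was above the WT median, and the groups overlapped over most of their range.

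Grin2c (ENSMUSG00000020734, chromosome 11, 115249169 to 115267243, minus strand) had 2.37, 2.80 and 3.90 CPM in WT libraries, against 2.19, 2.77 and 3.25 CPM in those of Capn15 KO. Its highest library was WT replicate 7 of litter F. Gabra6, a marker of mature cerebellar granule cells, which also use Grin2c, had no row in the table. The other 5 genes of the granule cell list were present, at a summed 241 to 296 CPM in WT and 228 to 303 CPM in Capn15 KO. Whether these cells have a part in the level of Grin2c was not tested. Grin2d (ENSMUSG00000002771, chromosome 7, 45831883 to 45878378, minus strand) had 19.0, 21.3 and 22.8 CPM in WT libraries, against 19.7, 22.1 and 25.3 CPM in those of Capn15 KO. Gm45441, an antisense gene at a mean of 1.45 CPM in WT and at most 2.11 CPM in any library, shares exonic bases with Grin2d. If the counting ignored strand, the count of Grin2d is uncertain by an amount that these levels do not give. Genes on the opposite strand also share exonic bases with Grin1, Grin2b and Grin2c, and they had no row in the table of counts. Genes for miRNA on the same strand share exonic bases with Gria2, Gria3 and Gria4, and they had no row either. Any effect of these overlaps on the counts was not tested. Grin3a (ENSMUSG00000039579, chromosome 4, 49661611 to 49845744, minus strand), which encodes a glycine-binding subunit that lowers calcium entry, had 153, 171 and 188 CPM in WT libraries, against 162, 177 and 192 CPM in those of Capn15 KO.

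The AMPA receptor genes likewise overlapped between genotypes. Gria1 (ENSMUSG00000020524, chromosome 11, 57011387 to 57330244, plus strand) had 224, 242 and 263 CPM in WT libraries, against 221, 244 and 259 CPM in those of Capn15 KO. Gria2 (ENSMUSG00000033981, chromosome 3, 80681450 to 80802835, minus strand) had 420, 477 and 513 CPM in WT libraries, against 401, 506 and 512 CPM in those of Capn15 KO. For both genes the lowest library of each genotype came from litter B. Gria3 (ENSMUSG00000001986, chromosome X, 41400854 to 41678601, plus strand) had 69.7, 74.5 and 78.5 CPM in WT libraries, against 64.6, 74.0 and 80.2 CPM in those of Capn15 KO. Gria4 (ENSMUSG00000025892, chromosome 9, 4417896 to 4796234, minus strand) had 143, 145 and 153 CPM in WT libraries, against 137, 142 and 149 CPM in those of Capn15 KO. The coefficient of variation over the 7 WT brains was lowest for Gria4, at 2.34%, and highest for Grin2a, at 17.1%, close to the 16.9% of Grin2c.

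Promoters from RefSeq (GRCm38.p6, 300 bases that span the start of transcription) were matched by symbol for 5 of the 10 members (Grin1, Grin2c, Grin2d, Gria2 and Gria4). The promoters of Grin1 and Gria2 are shown because Grin1 is shared by all NMDA receptors and Gria2 sets the calcium permeability of AMPA receptors. Both genes were also called between litters in the test given further on. That call held in 6 of 14 fits with a library left out for Grin1 and in 14 of 14 for Gria2. The promoter of Grin1 lies at chr2:25319138-25319437 and that of Gria2 at chr3:80802786-80803085, both on the minus strand. They are written 5′ to 3′, and capitals mark the GC box GGGCGG, searched on both strands.
Grin1: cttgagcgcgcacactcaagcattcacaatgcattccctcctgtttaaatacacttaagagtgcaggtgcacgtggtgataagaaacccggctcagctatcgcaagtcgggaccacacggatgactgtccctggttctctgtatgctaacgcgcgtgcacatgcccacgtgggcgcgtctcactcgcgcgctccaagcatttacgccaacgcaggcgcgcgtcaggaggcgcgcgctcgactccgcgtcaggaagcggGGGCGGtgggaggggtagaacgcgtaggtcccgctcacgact
Gria2: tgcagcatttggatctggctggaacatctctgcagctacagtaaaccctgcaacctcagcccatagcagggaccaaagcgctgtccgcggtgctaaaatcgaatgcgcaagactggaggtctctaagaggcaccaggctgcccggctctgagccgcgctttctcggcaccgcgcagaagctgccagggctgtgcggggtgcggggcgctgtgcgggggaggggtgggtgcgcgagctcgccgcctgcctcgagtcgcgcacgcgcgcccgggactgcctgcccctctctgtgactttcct
The GC content was 60.7% for Grin1 and 65.7% for Gria2, and between 56.0% and 70.0% over the 5 promoters, where the median of 32841 RefSeq promoters was 52.7%. The GC box was present once in Grin1 and 3 times in Grin2c, where 2 of the copies overlap, and absent from the windows of Grin2d, Gria2 and Gria4. Of all promoters 35.7% held it. The NRF1 core site (0.971% of all promoters), CAGCTG (16.3%) and TATAAA (13.6%), searched on both strands, were in none of the 5 windows. These matches describe the letters of the windows only.

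The make-up of each family was then expressed as the share of a subunit in the sum of CPM per kilobase of its family. Among the 6 NMDA receptor genes Grin2b took 34.1% ± 2.07 of the sum in WT and 34.8% ± 2.80 in Capn15 KO brains (SD, 7 libraries each). Grin3a took 29.2% ± 1.07 in WT and 29.0% ± 1.10 in Capn15 KO brains, and Grin1 took 24.8% ± 1.16 and 24.5% ± 1.82 (SD, n = 7 each). The remaining genes were minor, with WT shares of 6.59% ± 0.534 for Grin2d, 4.12% ± 0.484 for Grin2a and 1.19% ± 0.231 for Grin2c (SD, n = 7). Among the 4 AMPA receptor genes Gria1 took 39.5% ± 1.23 and Gria2 30.2% ± 1.41 in WT, followed by Gria4 with 22.9% ± 0.715 and Gria3 with 7.46% ± 0.159 (SD, n = 7). In Capn15 KO brains the same genes took 39.7% ± 0.664, 30.3% ± 1.38, 22.6% ± 0.977 and 7.35% ± 0.307 (SD, n = 7). No subunit's share differed between the genotype means by more than the SD of either group. These shares rest on the exon lengths, and the order of Grin2b, Grin3a and Grin1 among them is reversed per kilobase of the longest transcript. The lead of Gria1 among the AMPA receptor genes rests on them as well. In WT Gria2 was at 45.6 and Gria1 at 43.3 per kilobase of the longest transcript, with overlapping ranges. Per kilobase of coding sequence they were at 179 and 88.4, without overlap.

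**Figure D2:**
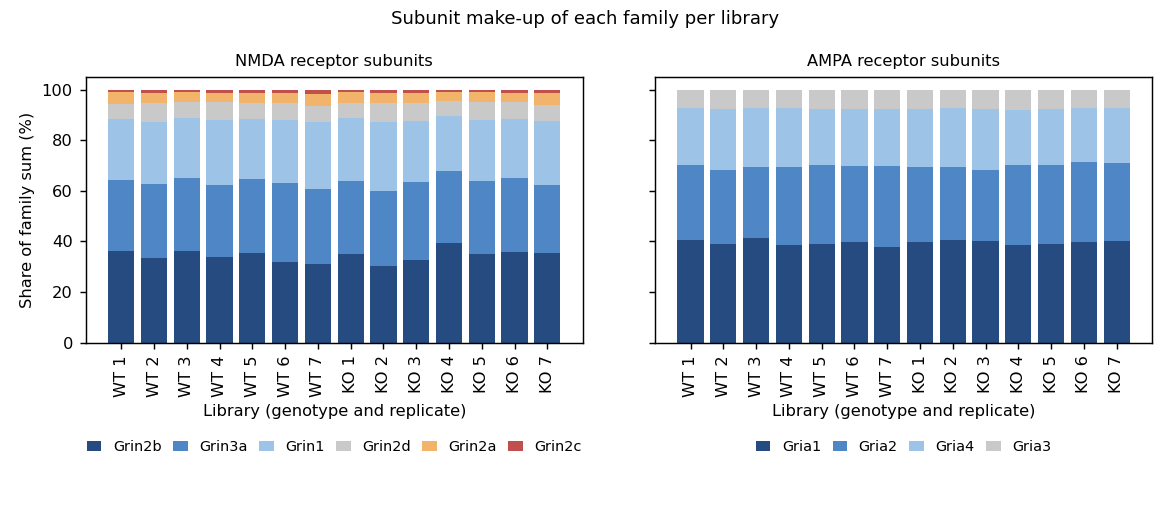
Share of each subunit gene (vertical axis, percent of the family sum of CPM per kilobase of exon) in each of the 14 libraries, for NMDA receptor genes on the left and AMPA receptor genes on the right. Grin2b takes between 30.3% and 39.4% of the NMDA sum, and no share separates WT from Capn15 KO libraries.

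Ratios between subunits do not depend on how libraries are scaled, and 6 of them were compared between genotypes with a two-sided exact permutation test of log2 ratios over all regroupings of 7 against 7 libraries. The ratio of Grin2b to Grin2a, whose fall after birth is the classical sign of maturing NMDA receptors, averaged 8.37 ± 1.08 in the WT group, from 6.34 to 9.68, and 8.75 ± 1.03 in the Capn15 KO group, from 7.49 to 10.6 (SD, 7 libraries each). In 5 of 7 pairs the Capn15 KO library had the higher ratio, and the log2 difference of 0.067 was within the spread between replicates (p = 0.523 in the exact permutation test and 0.865 when adjusted for 6 ratios). The ratio of Grin2d to Grin2b was 0.194 ± 0.0205 and 0.193 ± 0.0330 in WT and Capn15 KO brains (SD, n = 7 each, exact permutation test, p = 0.858). The sum of Grin2a, Grin2b, Grin2c and Grin2d stood to Grin1 as 1.86 ± 0.147 in WT and 1.92 ± 0.227 in Capn15 KO brains (SD, n = 7 each, exact permutation test, p = 0.641). The ratio of Grin3a to Grin1 was 1.18 ± 0.0608 in WT and 1.19 ± 0.0977 in Capn15 KO brains (SD, n = 7 each, exact permutation test, p = 0.865). Per kilobase of the longest transcript Grin3a was below Grin1 in both genotypes (23.1 and 27.1 in WT, 23.6 and 27.6 in Capn15 KO), so which of the 2 was higher depends on the length used.

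Gria2 stood to the sum of Gria1, Gria3 and Gria4 as 0.433 ± 0.0288 in WT and 0.436 ± 0.0284 in Capn15 KO brains (SD, n = 7 each, exact permutation test, p = 0.821). The sum of the AMPA receptor genes was 2.10 ± 0.107 times that of the listed NMDA receptor genes in WT and 2.03 ± 0.0799 times in Capn15 KO brains (SD, n = 7 each). In 5 of 7 pairs the Capn15 KO library had the lower value, which gave the lowest p of the 6 ratios (log2 difference -0.048, exact permutation test, p = 0.199, or 0.865 after adjustment). On the 7 pairs as a replicate block the exact sign-flip test gave p = 0.109, or 0.656 after adjustment. For the other ratios the p of the sign-flip test lay between 0.344 (Grin2b to Grin2a) and 0.859 (Grin3a to Grin1). Most pairs differ in sex, which neither test of the ratios takes into account. All ratios are per kilobase of exon, and their size depends on the length used. For a ratio of 2 single genes the comparison between genotypes does not depend on the lengths.

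**Figure D3:**
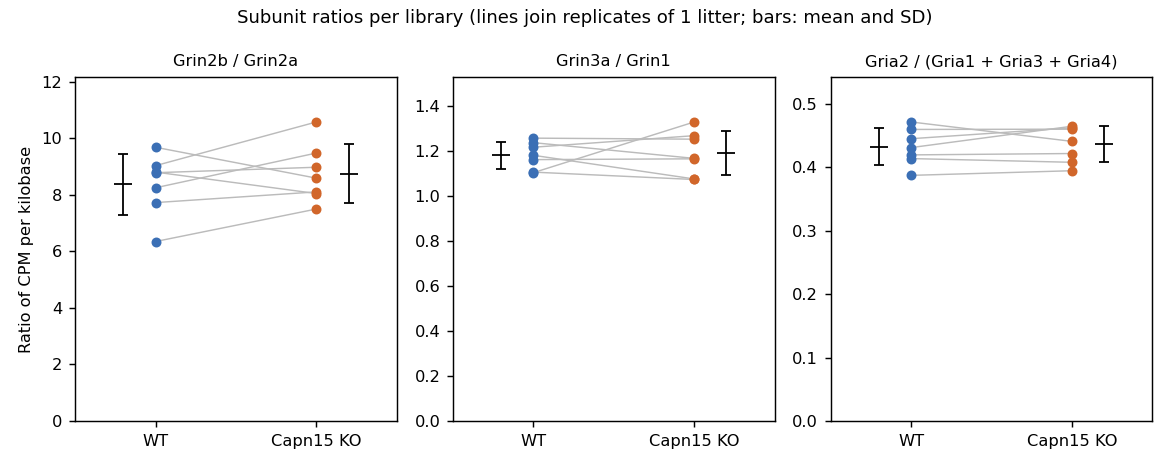
Ratios of CPM per kilobase for Grin2b to Grin2a, Grin3a to Grin1, and Gria2 to the other AMPA receptor genes (vertical axes, starting at 0) in 7 WT and 7 Capn15 KO libraries. Lines join libraries with the same replicate number and bars give mean and SD, and each panel has lines that go up and lines that go down.

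Whether the loss of Capn15 changed the mRNA of any subunit was tested with litter and sex in the model, over all genes and all 14 libraries (edgeR's quasi-likelihood test). None of the 10 members had an adjusted p under 0.05, where 1 of 17927 genes did (0.00558%). At an unadjusted p under 0.05 it was again 0 of the 10, where 922 genes passed (5.14%, with 2.88% higher and 2.26% lower in Capn15 KO). The likelihood ratio test of edgeR called 34 genes (0.19%) and DESeq2 called 17 genes, with no member among them. With the replicate block in place of litter no gene was called, so Capn15 itself was not. The paper, which also used edgeR with sex and litter, reported more genes, Capn15 among them. A missing call of a member is therefore to be read with its interval. Both rest on litter F as labelled, where Capn15 was not lower in Capn15 KO (18.7 CPM in WT replicate 7 and 20.2 CPM in Capn15 KO replicate 7). Intervals without litter F are not given. Log2 fold changes of the members, Capn15 KO minus WT, lay between -0.099 (Grin2c) and 0.105 (Grin2b), 7 of them above 0 and 3 below, with a median of 0.016 where the median of all genes was 0.0015.

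Grin2b had the highest fold change and the lowest unadjusted p. Its mean was 409 ± 52.7 CPM over 7 WT and 431 ± 62.2 CPM over 7 Capn15 KO libraries (SD), and 4 of 7 pairs had the higher value in Capn15 KO. Its log2 fold change was 0.105 (standard error 0.0641, unadjusted p = 0.124 and adjusted p = 1.0 in edgeR's quasi-likelihood test), and the 95% interval of the fold, 0.978 to 1.18, includes no change and an increase of up to that size. The log2 fold change of Grin2b was 0.058 without litter F, 0.055 without WT replicate 7 alone, 0.058 without Capn15 KO replicate 7 alone, 0.064 without replicate 6 of either genotype and 0.166 without replicate 5 of either genotype. Without WT replicate 3 it was 0.143 (unadjusted p = 0.0148 and adjusted p = 0.775 in edgeR's quasi-likelihood test). Without Capn15 KO replicate 5 the unadjusted p was 0.0436 and the adjusted p 0.603 in the same test. Grin2c averaged 2.88 ± 0.486 CPM in WT and 2.80 ± 0.383 CPM in Capn15 KO (SD, n = 7), with the widest interval of the members, from 0.823 to 1.06 fold. In 6 of 7 pairs Grin3a was higher in Capn15 KO, with means of 173 ± 11.8 CPM (WT) and 177 ± 11.2 CPM (Capn15 KO, SD, n = 7), a fold of 1.03 and an interval of 0.985 to 1.07.

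In 6 of 7 pairs the Capn15 KO value was the lower one for Gria3, and likewise in 6 of 7 for Gria4. Most pairs also differ in sex, so counts of pairs do not separate genotype from sex. Gria4, the most even of the members, averaged 145 ± 3.41 CPM (WT) and 143 ± 4.55 CPM (Capn15 KO, SD, n = 7), a fold of 0.986 with an interval of 0.952 to 1.02. The 95% intervals of Grin1 (0.944 to 1.08 fold), Grin2a (0.957 to 1.07), Gria1 (0.967 to 1.06), Gria2 (0.969 to 1.05) and Gria3 (0.95 to 1.04) also included no change. Over the 10 members the intervals reached no lower than 0.823 fold and no higher than 1.18 fold. In exact permutation tests of log2 CPM without covariates, two-sided over 7 against 7 libraries, the unadjusted p of the members lay between 0.247 (Gria4) and 0.973 (Grin2a). Without litter F the direction of Grin1, Grin2a, Gria1 and Gria3 changed, with log2 fold changes of -0.0031, -0.0021, -0.0082 and 0.0015, so no direction is read from these genes. The others were then at 0.058 (Grin2b), -0.064 (Grin2c), 0.014 (Grin2d, from 0.050), 0.031 (Grin3a), 0.016 (Gria2) and -0.029 (Gria4).

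**Figure D4:**
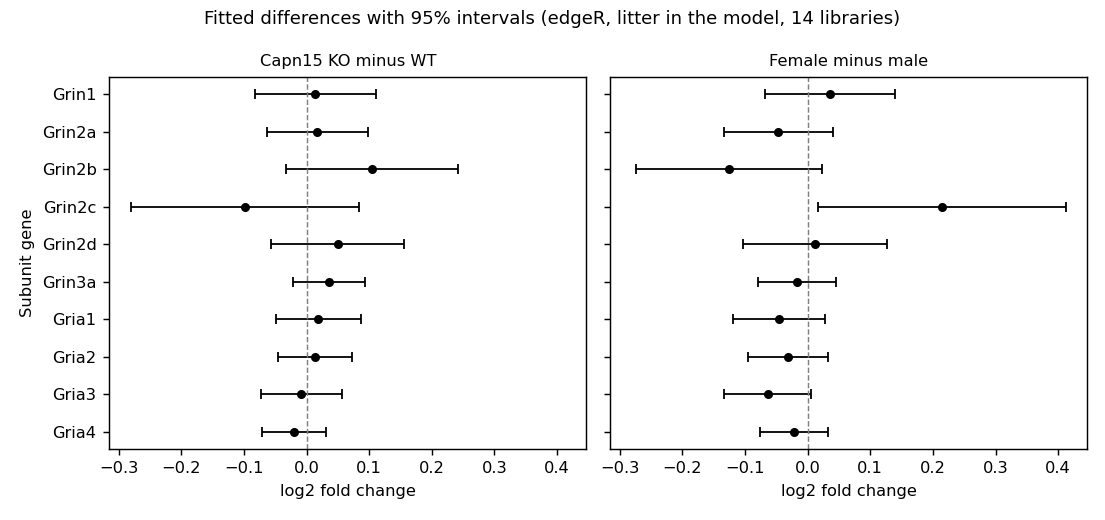
Log2 fold change of each subunit gene (horizontal axis) with its 95% interval, Capn15 KO minus WT on the left and female minus male on the right, from edgeR over 14 libraries. All 10 intervals on the left include 0, and on the right that of Grin2c does not, at an unadjusted p of 0.0359 and an adjusted p of 0.927.

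Litter gave more calls among the members than genotype. In the joint quasi-likelihood test of litter, with sex and genotype in the model, 6 of the 10 members had an adjusted p under 0.05 (Grin1, Grin2a, Grin2b, Grin3a, Gria2 and Gria3), where 29.6% of all 17927 genes did and 39.7% of the 10556 genes with a mean of at least 10 CPM, a level that all members but Grin2c reached. Litter means of a member differed between the lowest and the highest litter by 1.08 times for Gria4 to 1.44 times for Grin2a. Litter B had the lowest mean for 8 of the 10 members. Each litter holds as many WT as Capn15 KO brains, while litter and anything else that its brains shared cannot be told apart.

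Grin2a showed the clearest differences between litters. It was at 41.0 and 46.0 CPM in the brains of litter A and at 41.5 and 45.0 CPM in those of litter F, while the 4 brains of litter B lay between 29.2 and 32.1 CPM. Litter C (32.5 and 33.4 CPM) lay just above litter B, litter E (31.6 and 33.3 CPM) overlapped with it, and litter D (37.5 and 38.5 CPM) lay between these and litters A and F. In the litter test its adjusted p was 9.1e-05 (edgeR's quasi-likelihood test), and it was under 0.05 whichever of the 14 libraries was omitted. Gria2 followed another order, with litter B at 401 to 431 CPM and the other 5 litters between 472 and 513 CPM (adjusted p = 0.000684 in the same edgeR test). Grin3a was highest in litters A (188 CPM in both brains) and D (186 and 192 CPM) and lowest in litter B (153 to 168 CPM), with an adjusted p of 0.00509 in edgeR. Gria2 and Grin3a also stayed under 0.05 with each library left out.

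The other litter calls were less firm. Grin1 (adjusted p = 0.0424 in edgeR) stayed under 0.05 in 6 of 14 fits with a library left out, Grin2b (0.0429) in 6 of 14 and Gria3 (0.0275) in 8 of 14, and the number of members called was 3 when Capn15 KO replicate 1 or 3 or WT replicate 1 or 2 was left out. Without both libraries of litter F, a fit chosen after seeing the data, 6 members were called, with Gria1 (adjusted p = 0.0458 in edgeR) in the place of Grin1 (0.0529), and the adjusted p of Grin2c was 0.724. Grin2c, Grin2d, Gria1 and Gria4 had adjusted p-values of 0.0507, 0.323, 0.120 and 0.314 over all libraries.

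The ratio of Grin2b to Grin2a had its lowest litter mean, 6.92, in litter F (6.34 and 7.49) and its next lowest, 7.91, in litter A (7.72 and 8.10). In litter C it was 9.03 and 10.6, the highest litter mean. Some marker lists of other cells moved between the same litters, and others did not follow Grin2a. The summed level of the oligodendrocyte lineage list was 552 CPM in litter A and 578 CPM in litter F but 366 CPM in litter B, with 7 of its 7 genes called in the litter test, which called 29.6% of all genes and 39.7% of those with a mean of at least 10 CPM. The proliferation list was at 258, 235 and 176 CPM in litters A, F and B (5 of 5 genes called), and astrocytes and radial glia were at 1946, 1962 and 1636 CPM (6 of 7 called). Neuronal markers were at 4897, 4849 and 4576 CPM (5 of 7 called), and red blood cell genes at 153, 94.8 and 245 CPM (6 of 6 called). Lists of some neuron types followed other orders in litters A, F and B. Excitatory forebrain neurons were at 441, 402 and 426 CPM (4 of 6 called) and inhibitory neurons at 383, 395 and 409 CPM (4 of 6 called). Cerebellar granule cells were at 245, 255 and 290 CPM (3 of 5 called). The part of these markers in the litter differences of the subunits was not tested.

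**Figure D5:**
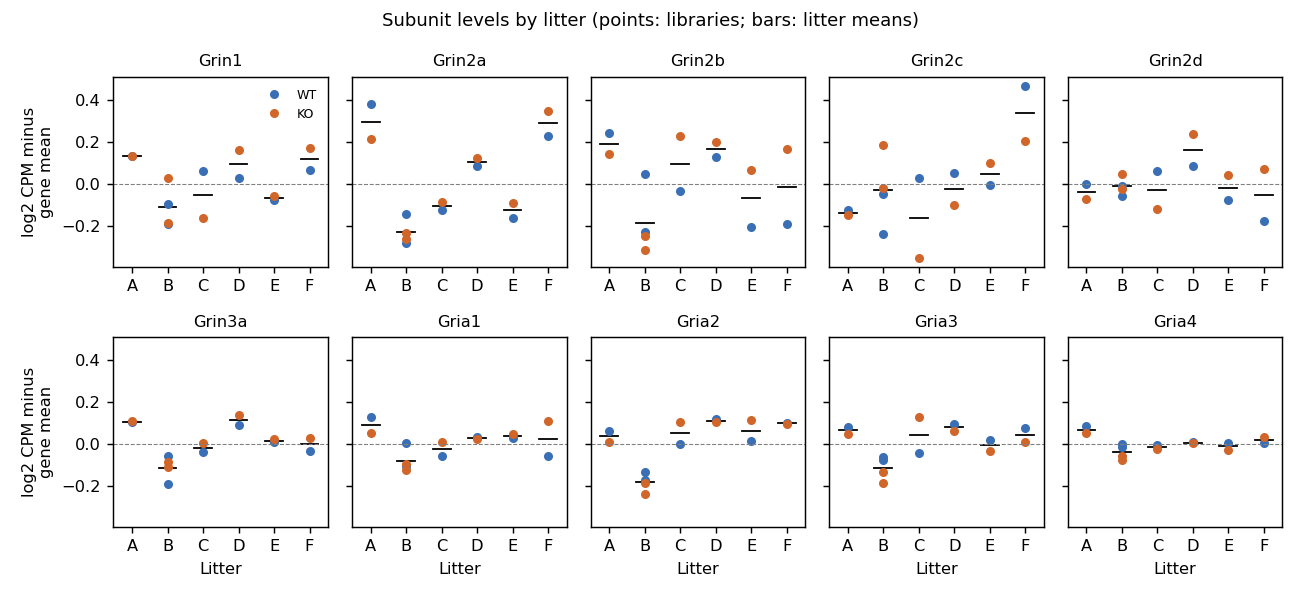
Log2 CPM of each subunit gene minus its mean over the 14 libraries (vertical axis, shared by all panels) for litters A to F, with WT in blue, Capn15 KO in orange and litter means as bars. Grin2a is high in litters A and F, Gria2 is low in litter B only, and Gria4 differs between litter means by 1.08 times at most.

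Female and male brains were compared with litter and genotype in the model. None of the 10 members was called at an adjusted p under 0.05, where 12 genes were (0.0669%), all on the X or Y chromosome. Gria3, the X-linked member, was at 71.5 ± 5.25 CPM in 6 female and at 75.1 ± 3.65 CPM in 8 male brains (SD). Its log2 difference, female minus male, was -0.064 (standard error 0.0325, unadjusted p = 0.0698 and adjusted p = 0.927 in edgeR's quasi-likelihood test), with a 95% interval of 0.912 to 1.0 fold. Grin2c was the only member with an unadjusted p under 0.05 (0.0359, adjusted p = 0.927 in edgeR), where 5.04% of all genes had one (2.41% higher and 2.63% lower in females). Its fitted fold was 1.16, female over male, although the plain means were 2.88 ± 0.226 CPM in 6 female and 2.80 ± 0.540 CPM in 8 male brains (SD), and both libraries of litter F, where it was highest, are male.

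Other genes of glutamatergic signaling were taken from 11 lists that hold 101 genes, of which 98 were in the table. None of the 98 was called between genotypes at an adjusted p under 0.05. At an unadjusted p under 0.05, 6 were higher and 2 lower in Capn15 KO, 8 of 98 where 5.14% of all genes passed. Between litters 53 of the 98 (54.1%) were called, where 29.6% of all genes were and 39.7% of those with a mean of at least 10 CPM, and between sexes none (0.0669% of all genes). The median log2 fold change of a list lay between -0.0075 (glutamate transport and D-serine supply) and 0.044 (the 5 kainate receptor genes), where that of all genes was 0.0015. It was -0.0061 for the 7 metabotropic receptor genes that were measured and 0.030 for the 23 postsynaptic scaffold genes.

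Slc7a10, an amino acid transporter that carries D-serine and glycine, had the lowest unadjusted p of the 98. It averaged 16.9 ± 3.16 CPM (WT) and 15.1 ± 2.98 CPM (Capn15 KO, SD, n = 7), with the lower value in Capn15 KO in 6 of 7 pairs (log2 fold change -0.18, standard error 0.047, unadjusted p = 0.00163 and adjusted p = 0.466 in edgeR). Among the scaffolds Shank1 had the lowest p, at 39.4 ± 4.82 and 44.8 ± 6.17 CPM (SD, n = 7 each, adjusted p = 0.812 in edgeR). Of the auxiliary subunits of AMPA receptors it was Shisa9 (27.6 ± 3.14 and 29.3 ± 3.91 CPM, SD, n = 7 each, adjusted p = 0.935 in edgeR), and of the metabotropic receptors Grm4 (16.0 ± 1.61 and 17.6 ± 2.18 CPM, SD, n = 7 each, adjusted p = 0.885 in edgeR). In other lists the lowest p belonged to Grik2 (kainate receptors, 0.0513), Neto2 (auxiliary subunits of kainate receptors, 0.295), Cdk5 (kinases and phosphatases, 0.171), Adar (RNA editing, 0.0958) and Eed (chromatin and transcription factors, 0.0601), all unadjusted in edgeR's test. None of these genes passed, and no direction is read from them.

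Across the 14 libraries most pairs of members were positively correlated. The highest Pearson correlation of log2 CPM between members was 0.853 (Gria2 and Gria3), followed by 0.816 (Grin1 and Grin2a) and 0.810 (Grin2b and Gria1), and the lowest was -0.469 (Grin2b and Grin2c). These values describe 14 libraries that share litters. Among 15217 other genes with a mean of at least 1 CPM, the gene most like Grin2a was Purb (Pearson's r = 0.974), and Ssx2ip (0.966) was also among the most alike. For Grin2b it was Lrrc7 (0.955), which encodes the scaffold densin, followed by Tnr (0.946), which encodes tenascin-R. Grin1 was most like Map1lc3a (0.958), Ache (0.954), which encodes acetylcholinesterase, and Rab3a (0.95), a GTPase of synaptic vesicles. Gria2 was most like Rapgef2 (0.962), Gria1 like Bmp3 (0.931), Grin3a like Cpne2 (0.948), Gria4 like E2f3 (0.901), Grin2d like Ubald1 (0.904) and Grin2c like Sardh (0.866). These genes were picked as the most alike of 15217 and are given as a description.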

How the data were processed

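RNA of 14 P2 mouse brains was depleted of ribosomal RNA and sequenced. The authors trimmed reads with Trimmomatic, aligned them to GRCm38 with STAR and deposited raw counts per gene for 17927 genes, 1 column per brain, with a second table of symbols. The paper names HTSeq-count and the submitters' processing notes name featureCounts. The annotation release, the strand setting and the filter on genes are not given in the sources used here. Litter (a letter) and sex came from the column names. Columns of values not used numbered 0.

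The tests ran in R (4.3.3): edgeR 4.0.16 (quasi-likelihood test, TMM, all genes with at least 1 count, litter and sex as covariates, Benjamini-Hochberg adjustment over all genes), with limma 3.58.1 and DESeq2 1.42.0 as alternatives, and in Python 3.11.15. Standard errors are the absolute log2 fold change over the root of F. Log2 CPM used a prior count of 2. Exon lengths came from GENCODE M21, which held 17909 of the genes. The gene test was checked on simulated counts. Libraries with the same replicate number share a letter, taken here as the litter. Their deviations from the genotype means had a mean correlation of 0.123 (range -0.467 to 0.443) over 15227 genes. Between libraries of other litters the mean was -0.040. Of the 7 WT libraries, 1 was closest to the Capn15 KO library of its number. The smallest chi-square per gene between any 2 libraries was 4.66, and none was treated as a copy. The smallest p of the permutation test is 0.000583 and that of the sign-flip test 0.0156. The p-values measure only the spread between these samples.

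Named genes are the 10 members, Capn15, the called gene or gene with the lowest p of each list, and the 3 genes most correlated with a member. Some genes that this rule names are not reported here. Other list genes enter as counts. Members and lists were chosen with earlier results of these data known. The floor of 3 counts is given as a CPM value only and does not cover the counting error of genes with more counts.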

Additional observations from a re-analysis of the deposited data

Results flagged for a closer look

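Each gene and each ratio was looked at within WT and within Capn15 KO, 32 sets of 7 values, for a highest or lowest value whose distance from its neighbour is large against the whole spread (Dixon's 95% limit). This held for 2 sets, and chance alone gives about 1.6. WT replicate 7 had the highest Grin2c of its group, 1.98 on the log2 CPM scale against 1.57 for the library below it, a gap of 0.584 of the spread. WT replicate 1 had the highest Gria4 of its group, 7.26 against 7.18 on the same scale, a gap of 0.768 of the spread.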

How the results depend on the processing

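Between genotypes, 0 of the 10 members were called under all 23 alternatives. The number of all genes called was 1 in the main setting, 17 with DESeq2, 34 with the likelihood ratio test, 7 without litter F, 0 with the replicate block in place of litter, and 0 to 7 with single libraries left out (7 without Capn15 KO replicate 7, 6 without WT replicate 7, 2 without Capn15 KO replicate 3, 1 without WT replicate 2 and 0 without any other library). The block changed no call of a member. Without litter F the log2 fold changes of Grin1 (-0.0031), Grin2a (-0.0021), Gria1 (-0.0082) and Gria3 (0.0015) changed sign. With single libraries left out, sign changes occurred in Grin1 (-0.045 to 0.089), Grin2a (-0.0051 to 0.037), Gria1 (-0.011 to 0.048), Gria2 (-0.011 to 0.034) and Gria3 (-0.053 to 0.025), while Grin2b (0.055 to 0.166), Grin2c (-0.161 to -0.064), Grin2d (0.0038 to 0.129), Grin3a (0.021 to 0.047) and Gria4 (-0.032 to -0.013) kept theirs. The lowest adjusted p of a member over these alternatives was 0.595 (Grin2d). Unadjusted p-values under 0.05 occurred for Grin2b (lowest 0.0148, without WT replicate 3) and Grin2d (lowest 0.0170, without WT replicate 4), both in edgeR's quasi-likelihood test.

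The female against male test called 12 genes, 19 with DESeq2, 36 with the likelihood ratio test and 11 to 16 with single libraries left out. There Grin1 (-0.049 to 0.102) and Grin2d (-0.078 to 0.063) changed sign. Litter called 6 members, 7 with the likelihood ratio test, which added Grin2c, and 3 to 7 with single libraries left out.

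WT levels per kilobase of the longest transcript moved to 27.1 (Grin1), 2.44 (Grin2a), 3.88 (Grin2d), 23.1 (Grin3a), 43.3 (Gria1), 45.6 (Gria2), 14.2 (Gria3) and 26.7 (Gria4). Per kilobase of coding sequence they moved to 40.3 (Grin1), 8.15 (Grin2a), 92.1 (Grin2b), 0.774 (Grin2c), 5.31 (Grin2d), 50.8 (Grin3a), 88.4 (Gria1), 179 (Gria2), 27.8 (Gria3) and 53.8 (Gria4). Only the length differs between these scales.

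No ratio passed under any alternative that gave a p. The linear model with litter and sex gave differences only, at 0.089 (Grin2b to Grin2a), -0.059 (Grin2d to Grin2b), 0.074 (Grin2a-d to Grin1), 0.024 (Grin3a to Grin1), 0.0093 (Gria2 to the other Gria genes) and -0.048 (Gria to Grin genes). Without litter F they were 0.038, -0.0048, 0.012, 0.018, 0.030 and -0.036 in that order. With single libraries left out the log2 differences ranged from -0.081 to 0.037 (Grin2d to Grin2b), -0.0098 to 0.085 (Grin2a-d to Grin1), -0.018 to 0.033 (Grin3a to Grin1), -0.015 to 0.035 (Gria2 to the other Gria genes), 0.0019 to 0.103 (Grin2b to Grin2a) and -0.062 to -0.032 (Gria to Grin genes). Depth limits Grin2c most, the only member under 10 CPM.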
